A study of Mus musculus with 18 samples.

Results

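Oligodendrocyte lineage genes were examined in hippocampal cultures of Fibcd1 WT and Fibcd1 KO mice grown on chondroitin sulphate proteoglycans (CSPGs), the sugar-bearing proteins of the brain extracellular matrix. The 9 genes were Olig1, Olig2, Sox10, Sox8, Pdgfra, Cspg4, Lhfpl3, Gpr17 and Bcas1, taken by symbol from a table of 12012 genes. They were chosen as markers of the lineage with the values of this table already known, so their differences between genotypes are given below as a description, without a test. The 2 lineage factors Olig1 and Olig2 were higher in every KO_CSPG library than in every WT_CSPG library, at 1.51 and 1.73 times the WT_CSPG mean. Pdgfra was higher at 1.88 times, with WT_CSPG libraries that spread widely. Cspg4 and Lhfpl3 were higher on average with groups that overlapped. On average Sox10 and Sox8 differed little, and the later genes Gpr17 and Bcas1 were not higher. The log2 differences of Sox10 and Gpr17 had standard errors of 0.32 and 0.39. A difference such as the 0.59 of Olig1 could therefore have been missed for these 2 genes.

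The cultures were neurons and accompanying cells from the hippocampus of E18.5 embryos, sequenced as poly-A RNA at 3 days in vitro (another passage of the study gives an earlier day). FIBCD1 is a membrane receptor that binds acetylated sugars, and its gene was disrupted in the KO by the Fibcd1tm1Lex allele on a C57BL/6J background, in every cell of the animal. Both groups grew on coverslips coated with CSPGs, after plating in medium with serum, and a replicate was a preparation of cells. Columns were available for 4 WT_CSPG and 4 KO_CSPG libraries, replicates A to D of each. The uncoated WT and KO libraries and WT_CSPG replicate E, 10 of the 18 labelled libraries, were not analysed here, so no value below tells what the coating did. For uncoated cultures the study names Pdgfra and Olig2 among the top genes of KO against WT. It proposes that numbers of glia may have differed between the cultures, which was not tested here. The labels do not say whether the preparations came from separate litters, so the errors measure the spread between these libraries, which may be partly technical.

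Oligodendrocytes, the myelinating cells of the central nervous system, arise from oligodendrocyte precursor cells. These precursors divide in response to platelet-derived growth factor through the receptor that Pdgfra encodes, carry the proteoglycan NG2 encoded by Cspg4, and depend on the transcription factors OLIG1, OLIG2 and SOX10. In the forebrain they appear in waves before and around birth, and most myelin forms after birth. Some of these genes are also used by other cells: Olig1 and Olig2 by neural progenitors and some astrocytes, Pdgfra by fibroblasts of the meninges, Cspg4 by pericytes and Sox10 by Schwann cells.

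Values are normalised read counts: each library's reads were scaled by its own size factor to make libraries comparable. The libraries held 10099564 to 11174615 reads over the table's genes in WT_CSPG and 10541445 to 11647202 in KO_CSPG. Fibcd1 itself was measured at 54.3 to 182 normalised counts in WT_CSPG and at 0.932 to 7.16 in KO_CSPG, in the direction of the labels in all 8 libraries. The genotypes also differed in genes of the sex chromosomes: the Y-linked Ddx3y was 783 ± 73.8 (SD, n = 4) in WT_CSPG and 434 ± 31.2 in KO_CSPG, Eif2s3y, Kdm5d and Uty were lower in KO_CSPG too, and Xist was higher (log2 difference 0.67, limma adjusted p = 0.0367). The Xist call was lost without any 1 of 7 libraries, every one but KO_CSPG replicate D (adjusted p of up to 0.112), and with the replicate letter as a block (0.0711). Of the variance of the summed Y-linked values, 91.2% lay between the genotypes, so the sex of the embryos and the genotype cannot be told apart in these libraries, although the study states that littermates were matched for sex.

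Olig1 (ENSMUSG00000046160, mm10 chr16:91269772-91271933, plus strand) encodes a basic helix-loop-helix factor of precursors and maturing oligodendrocytes. Its values were 369, 428, 426 and 424 normalised counts in WT_CSPG replicates A, B, C and D, and 661, 615, 616 and 587 in KO_CSPG replicates A, B, C and D. All 4 KO_CSPG libraries lay above all 4 WT_CSPG libraries, and replicate A was the lowest WT_CSPG library and the highest KO_CSPG library. The means were 412 ± 28.5 and 620.0 ± 30.8 (SD, n = 4 each), a difference of 0.59 ± 0.06 (standard error, SE) on the log2(value + 1) scale. Adding 1 shrinks the differences of weakly expressed genes on that scale. In such bulk RNA, fewer cells of a type and less RNA per cell cannot be told apart.

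Olig2 (ENSMUSG00000039830, chr16:91225550-91228677, plus strand) encodes the factor without which the lineage is not specified. It was measured at 159, 191, 144 and 161 normalised counts in WT_CSPG A to D and at 291, 257, 296 and 287 in KO_CSPG A to D. The lowest KO_CSPG library again exceeded the highest WT_CSPG library. The means were 163 ± 19.7 and 283 ± 17.5 (SD, n = 4 each), and the log2 difference was 0.79 ± 0.08 (SE). Across the alternatives that left out 1 library, the difference ranged from 0.54 to 0.62 for Olig1 and from 0.73 to 0.87 for Olig2. With a Y-linked covariate, the sum of the Y-linked genes per library, it was 0.41 for Olig1 and 0.70 for Olig2. Since 91.2% of that sum's variance lay between the genotypes, differences with this covariate are poorly determined, here and below. They do not show what a comparison of embryos of 1 sex would give.

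The promoters of Olig2, Pdgfra, Cspg4 and Lhfpl3, all higher in KO_CSPG on average, are shown here. Each runs from 250 bases before to 50 bases after the RefSeq start on GRCm38.p6. Of the 9 genes, 5 were matched to the promoter table: Olig2, Pdgfra, Lhfpl3, Cspg4 and Sox8 (not Olig1, Sox10, Gpr17 and Bcas1). The Sox8 window is not shown, although Sox8 was also higher on average, by a smaller log2 difference of 0.15. Capitals mark matches on either strand to TATAAA, to the CCAAT box or to the E-box CANNTG, which basic helix-loop-helix factors bind. The sequences run 5′ to 3′ on the gene's strand.
Olig2 (chr16:91225300-91225599, plus strand): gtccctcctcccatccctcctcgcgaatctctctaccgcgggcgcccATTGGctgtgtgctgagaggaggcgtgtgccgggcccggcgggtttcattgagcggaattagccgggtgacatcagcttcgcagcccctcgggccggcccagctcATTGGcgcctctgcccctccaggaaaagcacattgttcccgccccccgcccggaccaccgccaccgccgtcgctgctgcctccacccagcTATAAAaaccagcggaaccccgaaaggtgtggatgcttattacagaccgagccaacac
Pdgfra (chr5:75152001-75152300, plus strand): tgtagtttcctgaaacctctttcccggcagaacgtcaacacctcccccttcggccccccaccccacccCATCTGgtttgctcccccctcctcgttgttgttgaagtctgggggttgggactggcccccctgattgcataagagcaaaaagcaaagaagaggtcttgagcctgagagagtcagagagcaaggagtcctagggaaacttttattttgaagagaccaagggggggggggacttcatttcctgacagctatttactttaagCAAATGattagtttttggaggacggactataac
Cspg4 (chr9:56864854-56865153, plus strand): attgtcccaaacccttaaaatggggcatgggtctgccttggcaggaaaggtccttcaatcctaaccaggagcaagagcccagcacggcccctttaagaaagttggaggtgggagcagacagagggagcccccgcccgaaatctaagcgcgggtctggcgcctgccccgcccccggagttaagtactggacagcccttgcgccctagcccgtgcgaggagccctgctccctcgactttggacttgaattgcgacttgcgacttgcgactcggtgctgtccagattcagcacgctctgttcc
Lhfpl3 (chr5:22745804-22746103, plus strand): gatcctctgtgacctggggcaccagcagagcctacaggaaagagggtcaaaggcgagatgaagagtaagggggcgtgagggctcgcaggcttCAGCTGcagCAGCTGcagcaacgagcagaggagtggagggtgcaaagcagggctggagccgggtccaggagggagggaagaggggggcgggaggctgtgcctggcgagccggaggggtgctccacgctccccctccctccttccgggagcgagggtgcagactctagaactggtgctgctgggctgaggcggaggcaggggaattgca
The Olig2 promoter held TATAAA from base -8 and CCAAT, read as ATTGG on this strand, from bases -203 and -98, counted from the start. It held no CANNTG, while the Pdgfra promoter held this motif from bases -182 and 17, and the Lhfpl3 promoter from bases -158 and -149, both there as CAGCTG, which is itself a CANNTG. The Cspg4 window held none of these motifs. The Olig2 window had 65.0% GC with 25 CG pairs and the Pdgfra window 51.0% GC with 5, against medians of 52.7% and 7 over all promoters. Of 32851 mouse promoters of this length, 13.6% held the TATAAA motif on either strand and 37.4% held the CCAAT box. The E-box CANNTG was in 72.3% of them, and the form CAGCTG was in 16.3%. The 4 windows thus had no motif of the 4 in common, and a match is a description of letters, not of a bound site.

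**Figure D1:**
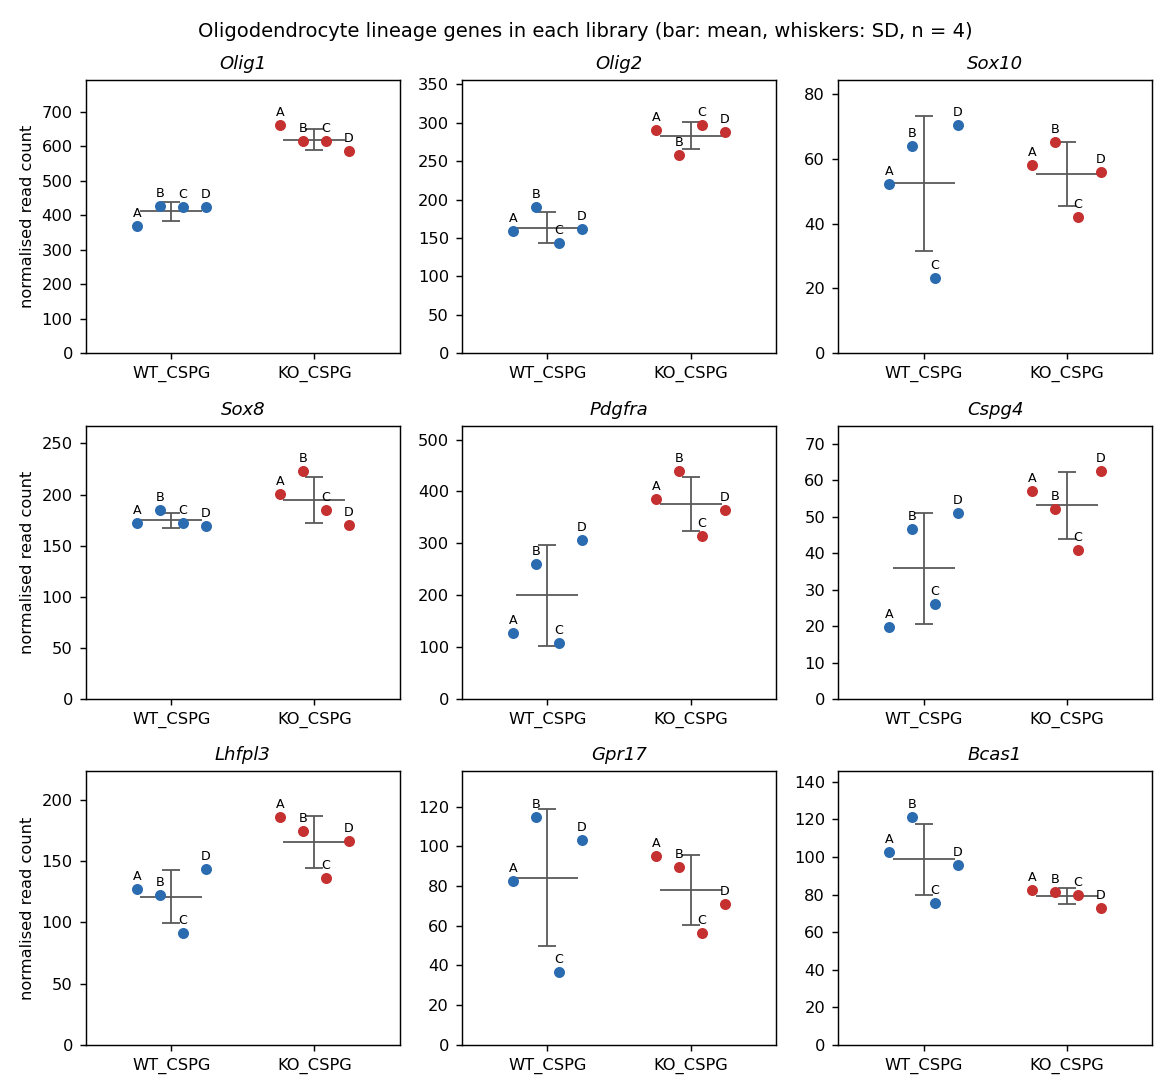
Normalised read counts of the 9 genes in the 4 WT_CSPG and 4 KO_CSPG libraries, 1 point a library with its replicate letter, and the group mean with its SD. Olig1, Olig2 and Pdgfra show groups that do not overlap, while the other 6 genes overlap.

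Sox10 (ENSMUSG00000033006, chr15:79154913-79164490, minus strand) encodes a SoxE factor that is kept from precursors to mature oligodendrocytes. Its values were 52.2, 63.9, 23.3 and 70.3 normalised counts in WT_CSPG A to D and 58.2, 65.3, 41.9 and 55.9 in KO_CSPG A to D. Replicate C was the lowest library in both groups, and the groups overlapped. The means were 52.4 ± 20.8 and 55.3 ± 9.79 (SD, n = 4 each), with a log2 difference of 0.17 ± 0.32 (SE). The sign of that difference rested on 1 library, since it was -0.17 without WT_CSPG replicate C.

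Sox8 (ENSMUSG00000024176, chr17:25565892-25570686, minus strand) encodes a SoxE factor that acts beside SOX10 and is also present in astrocytes. It was measured at 172, 185, 172 and 169 normalised counts in WT_CSPG A to D and at 200.7, 223, 185 and 171 in KO_CSPG A to D. The WT_CSPG libraries lay close together, and KO_CSPG replicates C and D fell within their range. The means were 175 ± 7.19 and 195 ± 22.4 (SD, n = 4 each), with a log2 difference of 0.15 ± 0.09 (SE). The difference was smaller than the larger SD of the groups, and with the Y-linked covariate it was -0.34 for Sox8 and -0.88 for Sox10.

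Pdgfra (ENSMUSG00000029231, chr5:75152292-75198215, plus strand) encodes the platelet-derived growth factor receptor alpha of precursors. Its values were 126, 259.9, 109 and 306 normalised counts in WT_CSPG A to D and 385, 439, 314 and 364 in KO_CSPG A to D. The groups did not overlap, but WT_CSPG replicate D came close to KO_CSPG replicate C. WT_CSPG fell into a pair of low libraries, A and C, and a pair of higher ones, B and D. The means were 200.2 ± 97.5 and 376 ± 51.9 (SD, n = 4 each), and the log2 difference was 1.03 ± 0.38 (SE), which ranged from 0.79 without WT_CSPG replicate C to 1.28 without WT_CSPG replicate D. With the Y-linked covariate the difference was -0.72, the opposite sign, but that value is poorly determined because the covariate nearly repeats the genotype.

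Cspg4 (ENSMUSG00000032911, chr9:56865033-56899870, plus strand) encodes NG2, a proteoglycan on the surface of precursors and pericytes. It was the lowest of the 9 genes, at 19.9, 46.6, 26.2 and 51.0 normalised counts in WT_CSPG A to D and at 57.2, 52.2, 40.9 and 62.6 in KO_CSPG A to D. As for Pdgfra, WT_CSPG replicates A and C were low and B and D were higher, and B and D overlapped KO_CSPG. The means were 35.9 ± 15.2 and 53.2 ± 9.24 (SD, n = 4 each). No gene of the table had a mean over the 8 libraries under 40.7, so Cspg4 may be present only through KO_CSPG. Its log2 difference was 0.64 ± 0.26 (SE). It was 0.40 without WT_CSPG replicate A, 0.84 without WT_CSPG replicate D and -0.57 with the Y-linked covariate.

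Lhfpl3 (ENSMUSG00000106379, chr5:22746059-23275597, plus strand) encodes a tetraspan membrane protein and is widely used as a precursor marker. Its values were 127, 122, 91.2 and 144 normalised counts in WT_CSPG A to D and 186, 174, 136 and 167 in KO_CSPG A to D. The only overlap was between WT_CSPG replicate D and KO_CSPG replicate C. The means were 121 ± 22.0 and 166 ± 21.4 (SD, n = 4 each), with a log2 difference of 0.46 ± 0.13 (SE) that stayed between 0.33 and 0.55 without any 1 library and was 0.32 with the Y-linked covariate.

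Gpr17 (ENSMUSG00000052229, chromosome 18, minus strand) encodes a G protein-coupled receptor that appears as precursors commit to differentiation. Its values were 82.5, 115, 36.9 and 103 normalised counts in WT_CSPG A to D and 95.02, 89.5, 56.2 and 71.1 in KO_CSPG A to D. All 4 KO_CSPG libraries lay within the WT_CSPG range, and replicate C was the lowest of both groups, as it was for Sox10. The means were 84.3 ± 34.3 and 78.0 ± 17.7 (SD, n = 4 each), with a log2 difference of -0.02 ± 0.39 (SE). Its sign changed with the library left out, from -0.37 without WT_CSPG replicate C to 0.17 without WT_CSPG replicate B.

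Bcas1 (ENSMUSG00000013523, chr2:170346991-170427845, minus strand) marks committed precursors and early myelinating oligodendrocytes. It was measured at 102, 121, 75.6 and 95.8 normalised counts in WT_CSPG A to D and at 82.4, 81.1, 79.7 and 73.0 in KO_CSPG A to D. The KO_CSPG libraries lay close together at the low end, and only WT_CSPG replicate C fell among them. The means were 98.8 ± 18.8 and 79.1 ± 4.19 (SD, n = 4 each), with a log2 difference of -0.30 ± 0.13 (SE). It was negative without each library in turn, from -0.42 to -0.19, and it was -0.77 for Bcas1 and -1.19 for Gpr17 with the Y-linked covariate.

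**Figure D2:**
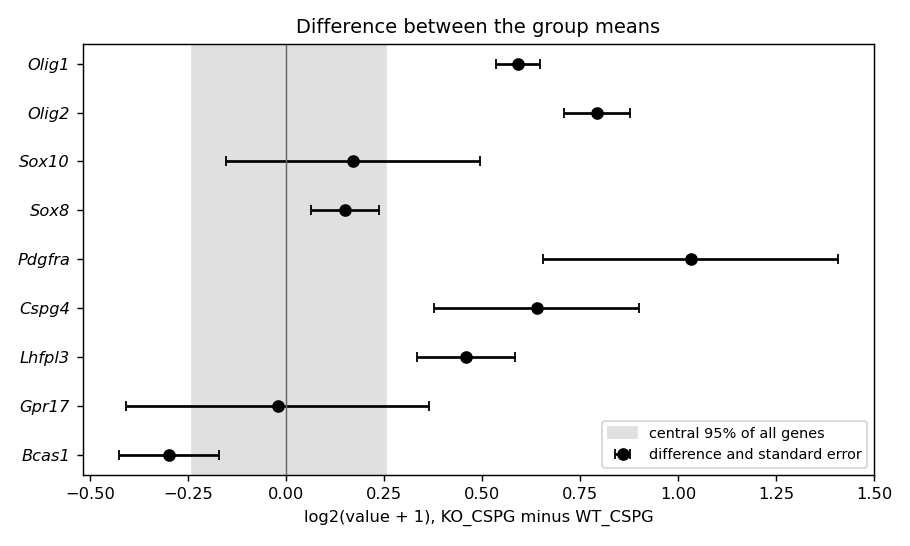
Difference of each gene between KO_CSPG and WT_CSPG on the log2(value + 1) scale, with its standard error, and the central 95% of the differences of all 12012 genes as a shaded band. Olig1, Olig2, Pdgfra, Cspg4 and Lhfpl3 lie above the band, Bcas1 below it, and Sox10, Sox8 and Gpr17 inside it.

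Set side by side, 7 of the 9 differences were positive and 2 negative, with a median of 0.46 against 0.00 over all genes. The groups did not overlap for 3 of the 9 genes, Olig1, Olig2 and Pdgfra, all higher in KO_CSPG. Of all genes, 9.22% had groups that did not overlap, 4.05% with KO_CSPG above and 5.17% with KO_CSPG below. By the limma threshold used for other genes below (adjusted p under 0.05), 2 of the 9 were past it, Olig1 and Olig2, where 2.88% of all genes were, 1.09% higher and 1.79% lower. Because the 9 genes were chosen from this contrast, nothing is read from these shares. The central 95% of all differences ran from -0.24 to 0.26. Counted upwards, 0.00833% of genes differed by more than Pdgfra, 0.04995% than Olig2, 0.142% than Cspg4, 0.191% than Olig1 and 0.3996% than Lhfpl3. The share was 6.63% for Sox10, 8.26% for Sox8, 60.4% for Gpr17 and 98.7% for Bcas1. Nothing is read from these ranks either, since the choice of the genes bears on them. All 9 genes were in a table whose lowest mean over the 8 libraries was 40.7 normalised counts, and 4 of them had a mean under 100. The Cspg4 mean was 35.9 in WT_CSPG, under that lowest mean, and 53.2 in KO_CSPG. Cspg4 may thus be in the table only through its KO_CSPG values, and nothing is read from its being higher there.

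The genes also varied differently between libraries of 1 genotype. In WT_CSPG the highest library exceeded the lowest 3.02-fold for Sox10, 3.11-fold for Gpr17, 2.81-fold for Pdgfra and 2.57-fold for Cspg4. For Olig1, Olig2 and Sox8 the same measure was 1.16-fold, 1.33-fold and 1.09-fold. In KO_CSPG no member exceeded 1.69-fold, the value of Gpr17. The lineage factors were thus the steadier genes and the precursor receptor the more variable one in WT_CSPG.

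This spread was set beside the one that counting error alone would give. The SD of the WT_CSPG log2 values was 0.74 for Pdgfra, where counting would give 0.10, and it was 0.73 for Gpr17 (0.16 from counting) and 0.71 for Sox10 (0.20 from counting). It was 0.10 for Olig1, where counting would give 0.07, and 0.06 for Sox8, below the 0.11 from counting. Of all 12012 genes, 0.0833% had a larger WT_CSPG SD than Pdgfra, 0.0916% than Gpr17 and 0.125% than Sox10. The share was 35.4% for Olig1 and 13.9% for Olig2, so Olig2 was itself among the more variable genes of the table. Cspg4 rested on few reads, 19 to 50 a library in WT_CSPG. No label names a batch that separates these libraries.

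**Figure D3:**
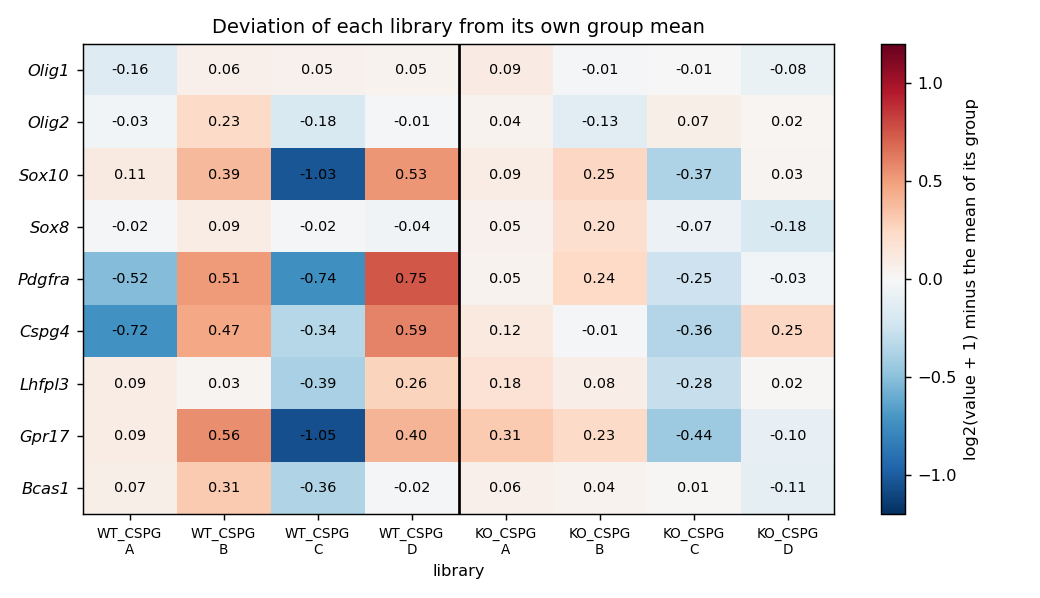
Deviation of each library from the mean of its own group on the log2(value + 1) scale, for the 9 genes in rows and the 8 libraries in columns. WT_CSPG replicate C is low for Sox10, Pdgfra, Gpr17, Cspg4, Lhfpl3 and Bcas1, and the KO_CSPG columns are paler.

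The same libraries were low for several genes. WT_CSPG replicate C was the lowest of its group for 6 genes (Olig2, Sox10, Pdgfra, Lhfpl3, Gpr17 and Bcas1), and KO_CSPG replicate C for 5 (Sox10, Pdgfra, Cspg4, Lhfpl3 and Gpr17). WT_CSPG replicates B and D were the highest for 5 and 4 genes. The replicate letters are not stated to mark a shared litter or day. Of the 7 fibroblast markers in the table, 4 (Col1a1, Col1a2, Col3a1 and Igf2) were also lowest in replicate C of both groups, named here after their values were seen. Col3a1, for example, was 113, 122, 8.73 and 96.8 normalised counts in WT_CSPG A to D and 125, 158, 23.5 and 72.0 in KO_CSPG A to D. The other 3 were not: Islr was highest in KO_CSPG replicate C (242), Fn1 was lowest in replicate A of both groups (485 and 383), and Fbln1 was lowest in WT_CSPG replicate D (484) and KO_CSPG replicate A (467). The part of such cells in the values of Pdgfra, which fibroblasts also use, was not tested.

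Per kilobase of gene length, which allows levels of different genes to be compared, Olig1 was the highest of the 9 genes, at a mean of 190 normalised counts per kilobase in WT_CSPG and 287 in KO_CSPG. Olig2 followed at 67.1 and 116, Sox8 at 56.0 and 62.5, and Lhfpl3 at 37.7 and 51.6. Bcas1 (26.2 in WT_CSPG), Pdgfra (19.97), Sox10 (19.3) and Gpr17 (16.2) were near each other, and neighbours in that order differed by less than the SD of Pdgfra. Cspg4 was the lowest, at 3.01 and 4.46. In KO_CSPG the order changed in 1 place, with Pdgfra at 37.5 above Bcas1 at 20.9, Sox10 at 20.4 and Gpr17 at 15.0, and Bcas1 and Sox10 there differed by less than their SDs.

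Ratios of these levels within a library give the later genes relative to the precursor receptor. Gpr17 over Pdgfra was 1.26, 0.852, 0.655 and 0.650 in WT_CSPG A to D and 0.476, 0.393, 0.346 and 0.377 in KO_CSPG A to D. Every KO_CSPG library lay below every WT_CSPG library for this ratio. Bcas1 over Pdgfra ran from 0.832 to 2.15 in WT_CSPG and from 0.491 to 0.675 in KO_CSPG, also without overlap. Gpr17 over Olig2 overlapped, at 0.120 to 0.300 and 0.0890 to 0.163, and so did Pdgfra over Olig2, at 0.184 to 0.462 and 0.257 to 0.415. Lhfpl3 over Olig2 overlapped too, at 0.482 to 0.677 and 0.348 to 0.514, as did Sox10 over Olig2, at 0.146 to 0.392 and 0.127 to 0.228. Olig2 over Olig1, the ratio of the 2 lineage factors, stayed between 0.299 and 0.434 over all 8 libraries. The ratios share their genes with the differences above and are no independent result. How often ratios of other gene pairs lack overlap was not computed, so nothing is read from its lack here.

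Olig1 and Olig2 lie side by side, with 41.1 kb between the end of Olig2 and the start of Olig1. To show whether the surrounding genes differed as well, the 14 other table genes that start within 500 kb of the Olig2 start were listed, a window set after the data were seen. Their differences lay between -0.11 (Ifngr2) and 0.10 (Donson) on the log2 scale. By limma, 0 of the 14 passed an adjusted p of 0.05, with 1 at an unadjusted p under 0.05, and the smallest adjusted p was 0.14. Over all genes the shares were 2.88% and 16.2%, so 14 genes need hold no call, and nothing is read from these counts. The nearest on each side were Paxbp1 (-0.09, adjusted p = 0.341) and Ifnar2 (0.09, adjusted p = 0.652).

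**Figure D4:**
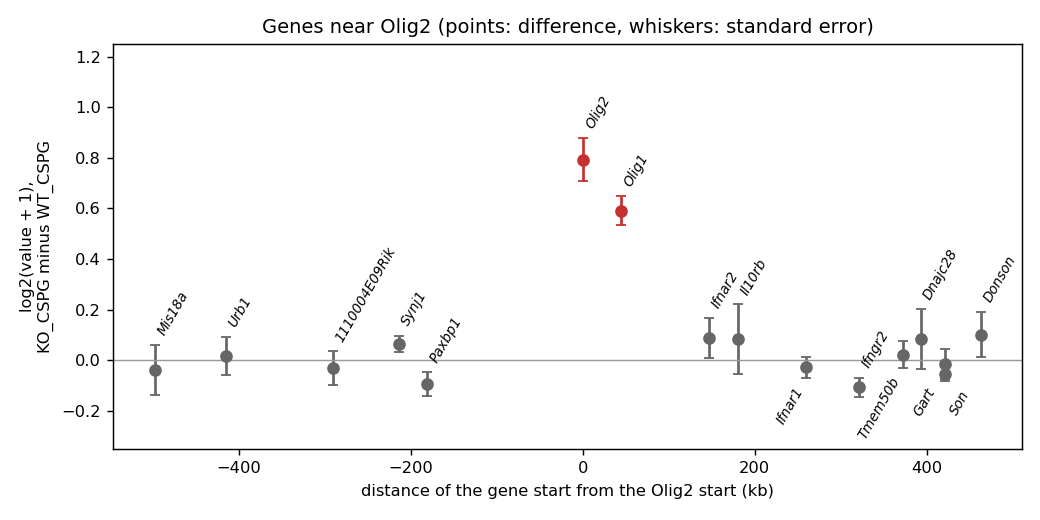
Differences between KO_CSPG and WT_CSPG on the log2(value + 1) scale, with standard errors, of Olig1, Olig2 (red) and 14 neighbouring genes (grey), by the distance of the gene start from the Olig2 start in kb. The 14 neighbours lie between -0.11 and 0.10, while Olig2 and Olig1 stand at 0.79 and 0.59.

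Other genes of the lineage were read from lists made with earlier results of these data known. Of 83 further lineage genes, 56 were in the table and 3 of these (5.36%) passed the limma test at an adjusted p under 0.05, against 2.88% of all genes. Their median difference was 0.05. At an unadjusted p under 0.05 there were 19 of the 56, where 16.2% of all genes in the table were past the same threshold. The same 16.2% stands beside the unadjusted counts of the single lists below. Genes of other cell types, read below, had 23 of 67 past it, so such a share was not particular to the lineage. Tril and Vcan were among the 3, and both lost their calls without at least 1 single library.

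Among further regulators of the lineage, 12 of 16 were in the table, with a median difference of 0.00. Zeb2, the highest of the list per kilobase, did not pass (-0.04). Nkx2-2 and Myrf, factors that act as precursors differentiate, were not in the table.

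Of further precursor genes, 25 of 28 were in the table, with 1 higher, 1 lower and a median difference of 0.13. Tril, a Toll-like receptor accessory protein, rose from 365 ± 29.0 to 435 ± 26.9 (SD, n = 4 each; log2 difference 0.25, limma adjusted p = 0.0265). Vcan, the CSPG versican, fell from 1116 ± 29.2 to 975 ± 76.2 (SD, n = 4 each; log2 difference -0.20, limma adjusted p = 0.0203). At an unadjusted p under 0.05 there were 12 of the 25, most of them higher, against 16.2% of all genes. C1ql1, a secreted C1q-like protein of precursors, had the widest difference of the list at 0.70 ± 0.24 (SE) without passing (adjusted p = 0.142). Fabp7, the highest per kilobase, is shared with radial glia and differed by 0.13 (adjusted p = 0.657).

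No gene of the later stages passed the test, but only 2.88% of all genes did, so lists this short need hold none. Of 18 further genes of committed precursors, 11 were in the table and 0 passed by limma, with 3 at an unadjusted p under 0.05 and a median difference of 0.01. The highest of them per kilobase was Fyn, a Src-family kinase also used by neurons, at -0.08 (adjusted p = 0.16). Of 22 myelin genes, 8 were in the table and 0 passed, with 1 at an unadjusted p under 0.05. The highest of these per kilobase was Qk, an RNA-binding protein that many cells use, at 0.05 (adjusted p = 0.502). Mbp, which encodes a major myelin protein, was 231 ± 8.93 in WT_CSPG and 233 ± 23.8 in KO_CSPG (SD, n = 4 each). Mag, Mobp, Cldn11 and Opalin, genes of mature oligodendrocytes, were among the 14 that were not in the table.

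**Figure D5:**
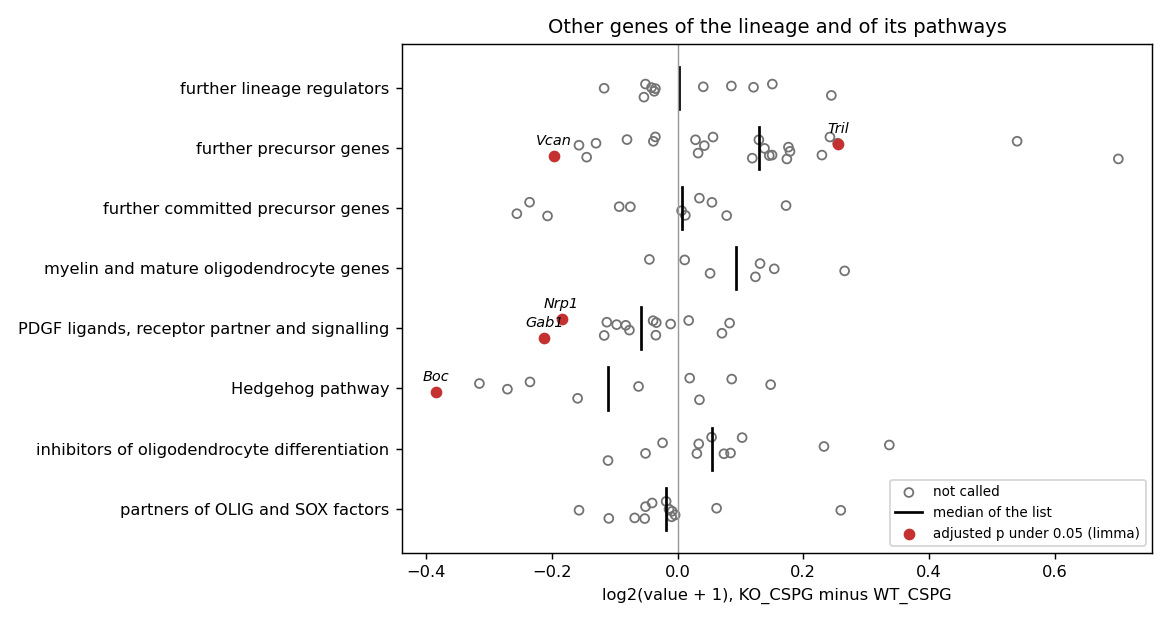
Differences between KO_CSPG and WT_CSPG on the log2(value + 1) scale for the reported genes of 8 lineage and pathway lists, 1 point a gene, with the genes that passed the limma test marked and the list median as a line. The medians of these 8 lists lie between -0.11 and 0.13, and the point farthest to the right, C1ql1 at 0.70, did not pass.

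Pathways that act on precursors were also read. Of 14 genes for ligands and signalling of platelet-derived growth factor, all were in the table, with 0 higher and 2 lower. An unadjusted p under 0.05 was found for 5 of the 14, all 5 lower in KO_CSPG, against 16.2% of all genes. Nrp1, a co-receptor for several growth factors and semaphorins, fell from 6606 ± 273 to 5814 ± 255 (SD, n = 4 each; log2 difference -0.18, limma adjusted p = 0.00235), and the adaptor Gab1 fell from 593 ± 44.9 to 511 ± 25.5 (-0.21, adjusted p = 0.0372). Gab1 lost its call without any 1 of 6 libraries. Pdgfa, the ligand of the receptor that Pdgfra encodes, was 293 ± 6.14 in WT_CSPG and 271 ± 21.5 in KO_CSPG and did not pass (adjusted p = 0.419). The adaptor Grb2, used in most cells, was the highest of the list at 643 normalised counts per kilobase over the 8 libraries.

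Hedgehog signalling, which induces Olig2 in the ventral neural tube, had 10 of 15 genes in the table, with 0 higher and 1 lower. An unadjusted p under 0.05 was found for 5 of the 10, all 5 lower in KO_CSPG, against 16.2% of all genes. Boc, a Hedgehog co-receptor, fell from 258 ± 26.2 to 197 ± 8.03 (SD, n = 4 each; log2 difference -0.38, limma adjusted p = 0.00531). The ligand Shh and the target Gli1 were not in the table, and the transducer Smo was the highest per kilobase at 75.3 over the 8 libraries. Of the inhibitors of oligodendrocyte differentiation, 11 of 13 were in the table and 0 passed by limma, with 2 at an unadjusted p under 0.05. Of the partners of OLIG and SOX factors, 13 of 13 were in the table and 0 passed, also with 2 at an unadjusted p under 0.05. Id2, which holds back basic helix-loop-helix factors, and Sox11, a factor of young neurons, were the highest of these lists at 1495 and 995 normalised counts per kilobase.

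Markers of other cells that the cultures could hold were read because several of the 9 genes are shared with them. Of 105 such genes, 67 were in the table and 3 (4.48%) passed the limma test, against 2.88% of all genes. An unadjusted p under 0.05 was found for 23 of the 67, and for 16.2% of all genes. Prox1, a factor of dentate granule neurons, rose from 1792 ± 125 to 2184 ± 149.9 (SD, n = 4 each, log2 difference 0.29, limma adjusted p = 0.00918). Nes, the intermediate filament of progenitors, fell from 1273 ± 50.8 to 1096 ± 25.3 (-0.22, adjusted p = 0.00192), and the neuronal factor Neurod6 fell from 6317 ± 331 to 5535 ± 281 (-0.19, adjusted p = 0.0118). The cultures were rich in neuron and astrocyte transcripts, with Tubb3 at 8269 and Gfap at 4877 normalised counts per kilobase over the 8 libraries, next to 190 for Olig1 in WT_CSPG.

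By list, 15 of 18 astrocyte and radial glia markers were in the table with 0 higher and 1 lower (Nes). All 14 of 14 neuron markers were, with 1 higher (Prox1) and 1 lower (Neurod6). An unadjusted p under 0.05 was found for 4 of the astrocyte and radial glia markers and 5 of the neuron markers, against 16.2% of all genes. Of those 4, all but Nes were higher in KO_CSPG, and the 5 neuron markers went both ways. Of the astrocyte markers, Fabp7 was the highest per kilobase at 6363 and Hes5 had the lowest mean at 158 normalised counts, and Slc17a7 was the lowest neuron marker at 483. In the GABAergic list all 12 genes were in the table and 0 passed by limma, with 2 at an unadjusted p under 0.05. Sst was its highest at 1899 per kilobase and Dlx6 its lowest mean at 48.2. Of 14 microglia markers 10 were in the table and 0 passed, with 4 at an unadjusted p under 0.05, all 4 higher in KO_CSPG. The summed values of the 10 were 2837 to 3355 in WT_CSPG and 2955 to 3572 in KO_CSPG. Cd68 was the highest at 367 per kilobase and Ptprc the lowest mean at 93.5, while the defining Tmem119 and P2ry12 were not in the table.

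Lists of cell types that share single genes with the lineage held few genes in the table, too few to judge a cell type by. Of 13 fibroblast markers, 7 were in the table and 0 passed, with 3 at an unadjusted p under 0.05, and their summed values ranged from 1303 to 1786 in WT_CSPG and from 1252 to 2037 in KO_CSPG. Dcn and Lum were not in the table, Fbln1 was the highest at 116 per kilobase and Igf2 the lowest mean at 44.0. Of 13 mural cell markers, 6 were in the table and 0 passed, with 2 at an unadjusted p under 0.05, and the sums were 693 to 820 and 757 to 927. Acta2 was the highest of them at 71.6 per kilobase and Anpep the lowest mean at 44.0. The pericyte gene Rgs5 differed by 0.70 ± 0.21 (SE) without passing (adjusted p = 0.148), while Pdgfrb was 136 ± 17.7 and 143 ± 9.43 (SD, n = 4 each). The part of pericytes in the values of Cspg4 was not tested. Of 11 Schwann and neural crest markers, 4 were in the table and 0 passed, with 2 at an unadjusted p under 0.05, and the defining Foxd3 was not in the table. Gap43, which neurons use strongly, was the highest there and Ngfr the lowest mean at 68.5. Of 12 endothelial markers, Kdr alone was in the table, at a mean of 55.5 over the 8 libraries (log2 difference -0.42, limma adjusted p = 0.19). Of 12 proliferation genes, all were in the table and 0 passed, with 0 at an unadjusted p under 0.05, from Pcna, the highest at 206 per kilobase, to Ccnb1, the lowest mean at 73.8.

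Some of the 9 genes share exonic bases with other genes, and the strand setting of the counting is not given, so reads there cannot be assigned to 1 of them. In GENCODE M21 the overlap was 157 bases for Olig1 (Gm15966), 329 for Sox8, 652 of 10024 for Pdgfra, 567 for Lhfpl3, 188 for Gpr17 (Lims2) and 474 for Bcas1. Olig2, Sox10 and Cspg4 had none.

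The genes whose values over the 8 libraries were most like those of Olig1, by Pearson's r of log2(value + 1), were Trub2 (0.988), Adcyap1 (0.973), Clvs2 (0.964), Trim25 (0.964) and Nog (0.963). For Olig2 they were Prim1 (0.977), Lypd6 (0.966), Lars2 (0.964), Trub2 (0.963) and March8 (0.958). For Pdgfra they were Ldb2 (0.990), Slc8a2 (0.986), Sla (0.983), Caln1 (0.976) and Slc15a2 (0.976). Trub2, a pseudouridine synthase gene, was the only one on more than 1 of these lists. These are descriptions over 8 libraries of 2 genotypes, picked as the highest of 12012 genes, and any gene that differs between the genotypes tends to such values.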

How the data were processed

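The authors sequenced poly-A RNA as 50-base single reads. Per the labels, the processing notes name mm10 and DESeq2; the aligner, counting program and strand setting are not given in the sources used here. The deposited values are a normalised signal, reads scaled with a size factor for each library. Every value was a whole multiple of its library's step. The table also holds gene lengths, a mean and the authors' log2 fold change, standard error, Wald score, p-values and a call for KO_CSPG against WT_CSPG, none of which was used. All 8 per-library columns were used.

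The 9 genes and all lists were chosen with earlier results of these data known. Values were transformed to log2(value + 1), with a pseudocount of 1 and no further filter, and compared by limma 3.58.1 (R 4.3.3; trended, robust prior variance) with Benjamini-Hochberg adjustment over 12012 genes and a threshold of 0.05. Other values were computed in Python 3.11.15. Tested on simulated data for 12012 genes, the fit recovered 82 of 100 genes changed by 0.5 and 99 of 100 changed by 1 on the log2 scale, and called 5 of 11812 unchanged genes. Between pairs of libraries of 1 group, the chi-square per degree of freedom was 1.83 to 2.90, so no library was a copy.

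Named genes are the 9 genes, Fibcd1, every list gene that passed, the highest of a list per kilobase, the lowest marker of another cell type, and the 5 genes most like Olig1, Olig2 and Pdgfra. C1ql1, Rgs5, Mbp, Pdgfa, Pdgfrb, Gfap, the neighbours, Col1a1, Col1a2, Col3a1, Fn1, Islr and the genes not in the table were named after their values were seen. Some list genes are not reported here. The alternatives tried were pseudocounts of 0.1 and 10, only genes with a mean of 100 or more, upper-quartile scaling, no trend or no robust prior, the replicate letter as a block, a Y-linked covariate and leaving out each library. Sequences came from RefSeq and exons from GENCODE M21.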

Additional observations from a re-analysis of the deposited data

Results flagged for a closer look

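In 3 of 48 groups of 4 libraries, 1 library lay far from the others by Dixon's test, where chance gives about 1 in 20, or 2.4. Olig1 was 369 normalised counts in WT_CSPG replicate A and 424 to 428 in the other 3 WT_CSPG libraries. Fibcd1 was 182 in WT_CSPG replicate D and 54.3 to 70.4 in the others. Nrp1 was 6200.1 in WT_CSPG replicate D and 6713 to 6790 in the others.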

How the results depend on the processing

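Of 12012 genes, 346 passed the test (131 higher, 215 lower in KO_CSPG). Without the trend of the prior variance 80 passed (28 higher, 52 lower), and with the Y-linked covariate 2 passed (825 at an unadjusted p under 0.05). Leaving out 1 library gave 186 (without KO_CSPG replicate A) to 576 (without WT_CSPG replicate D). Upper-quartile scaling gave 360, split into 182 higher and 178 lower. Of the further lineage genes 3 passed, but 0 by limma without the trend (14 unadjusted), 5 without the robust prior, 0 with the Y-linked covariate (7 unadjusted), and 0 (without KO_CSPG replicate A or C) to 7 (without WT_CSPG replicate D) with 1 library left out. For genes of other cell types the counts were 3, 0 without the trend (17 unadjusted), 7 without the robust prior, 0 with the covariate (8 unadjusted), and 3 to 7 with 1 library left out, the highest without WT_CSPG replicate D. The cause was not tested. Without the trend and with the covariate, Tril, Vcan, Nrp1, Gab1, Boc, Nes, Neurod6 and Prox1 lost their calls. Leaving out 1 library ended those of Tril, Vcan and Gab1 (adjusted p up to 0.127, 0.102 and 0.144) and none of those of Nrp1, Boc, Nes, Neurod6 and Prox1. The Y-linked covariate could not be applied to the Y-linked genes it sums. Models for counts and TMM scaling were not run: the deposited values are scaled, and the reads recovered from them served only for depth and counting error.

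With the replicate letter as a replicate block, 429 genes passed, with 6 of the further lineage genes and 8 of the genes of other cell types. The letters do not pair the libraries by the labels, and same-lettered libraries deviated from their group means with correlations across genes of -0.07 (A), 0.10 (B), 0.27 (C) and -0.01 (D). The differences of the 9 genes were the same under the block. They could not have changed, because both groups hold the same letters, A to D. Nothing is read from that sameness.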
